A study of Homo sapiens with 3 samples.

Results

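S100 proteins are small calcium-binding proteins of vertebrates, each with a pair of EF-hands, the helix-loop-helix folds that hold calcium. Most of them work as dimers, in which bound calcium uncovers a surface that docks to target proteins such as annexins, myosin or p53, and several are also released from cells and bind receptors. In epithelia and carcinomas the family is known for its links to cell motility and invasion. The genes followed here are the 10 members S100A2, S100A3, S100A4, S100A6, S100A10, S100A11, S100A13, S100A14, S100A16 and S100P. They were chosen by gene symbol among the 25270 symbols listed in each library, which hold 11 more S100 genes.

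HepG2 is an established line of human liver carcinoma cells. Total RNA was sequenced from 3 cultures: untreated parental cells (HepG2/wild), cells exposed to metformin for more than 5 months and selected for survival (HepG2/metR), and HepG2/metR cells treated for 24 h with 40 mM oxamate, which inhibits lactate dehydrogenase. The study made HepG2/metR as a hyper-glycolytic model that releases much lactate, and used oxamate to lower lactate in it, so the comparisons ask which genes differ in the model and which of these respond to oxamate. The sources used here do not say whether HepG2/metR is 1 clone. There was 1 library per condition, so no value below has a replicate error, no difference has a test, and differences between cultures cannot be told apart from differences between conditions.

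The deposited values are log2(FPKM + 1), where FPKM is the number of fragments per kilobase of transcript and per fixed number of mapped fragments. Levels are given here as FPKM, and a log2 change is the difference of 2 deposited values, which understates the change of a low gene. How many reads stand behind each library is unknown. Over the 12210 genes with a mean of at least 1 FPKM, the median log2 change was 0.02 in each comparison, and the median of its size was 0.65 between HepG2/metR and parental cells and 0.21 between HepG2/metR cells with and without oxamate. The hepatocyte markers fixed for the check of the label, among them ALB and APOA1, were listed at 1 FPKM or more for 11 of 11 genes in parental cells and for 2 of 11 in HepG2/metR cells, and summed to 30703 FPKM in HepG2/wild and 10.8 FPKM in HepG2/metR with oxamate. All comparisons of HepG2/metR with parental cells therefore set a library that holds liver gene expression against one that has almost none.

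The 10 members changed places between the parental and the selected cells. Among them S100P had the highest level in parental HepG2 cells, whereas S100A6, S100A11 and S100A10 had the highest levels in HepG2/metR cells, where S100P was listed at 0. S100A1, an S100 gene outside the members, was second to S100P in parental cells at 285 FPKM. Of the 10 members, 6 rose by 2-fold or more from HepG2/wild to HepG2/metR, 3 fell by 2-fold or more and 1 did neither. Among all genes kept, 16.6% were at least 2-fold higher and 17.6% at least 2-fold lower. The median log2 change was 1.05 over the members, against 0.02 over all genes kept. All 10 members passed the filter on low values, S100A14 and S100P only through their levels in parental cells. With oxamate, 0 of the 10 members were at least 1.5-fold lower and 1, S100A4, was at least 1.5-fold higher, against 3.82% and 4.3% of all genes kept.

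**Figure D1:**
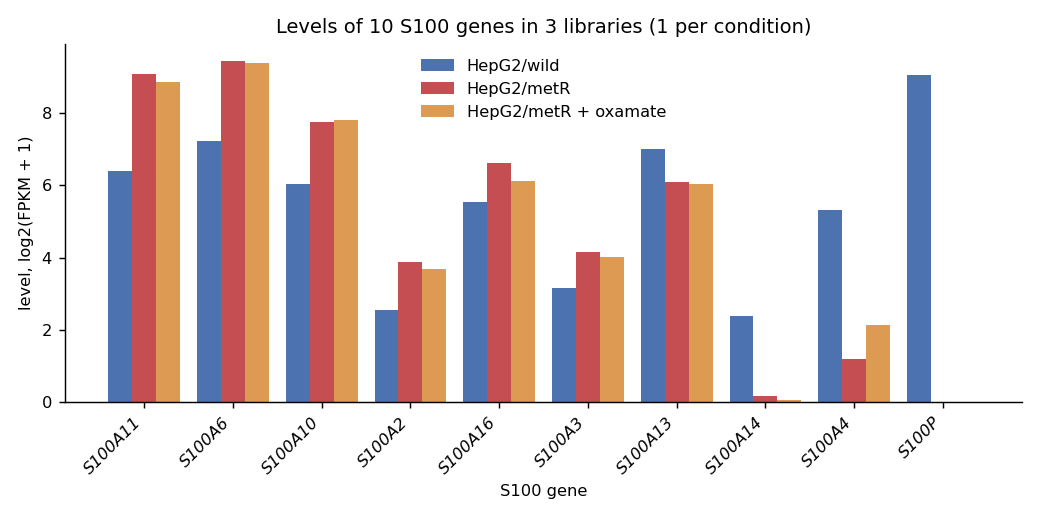
Level of each S100 gene as log2(FPKM + 1) on the vertical axis, with 1 bar per library and the genes ordered by their change between HepG2/metR and HepG2/wild; there are no error bars because each condition has 1 library. The bars of HepG2/metR with and without oxamate stand close together for most genes, and S100P has a bar in HepG2/wild only.

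The upstream sequence of the genes at the ends of this order is shown first, to set the 3 members that rose most beside S100A4 and S100P, which fell. RefSeq windows of 300 bases, from 250 before to 50 after a gene's start, were matched for all 10 members, with 14 windows in all because S100A2, S100A13 and S100A16 have more than 1. The sequences below run 5′ to 3′ along the gene, in build GRCh38.p14. Capitals mark every CG pair, the bases that DNA methylation acts on in promoters, and the letters TATAAA, which were searched on both strands. The letters TGANTCA, searched likewise, do not occur in these 5 windows.
S100A6, minus strand, chr1:153535942-153536241: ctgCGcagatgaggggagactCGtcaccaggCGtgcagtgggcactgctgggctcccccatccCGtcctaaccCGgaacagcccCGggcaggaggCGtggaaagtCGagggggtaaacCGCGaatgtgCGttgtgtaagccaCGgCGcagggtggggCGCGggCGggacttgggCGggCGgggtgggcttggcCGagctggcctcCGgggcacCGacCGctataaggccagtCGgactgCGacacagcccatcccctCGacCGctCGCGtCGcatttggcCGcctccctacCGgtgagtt
S100A10, minus strand, chr1:151993810-151994109: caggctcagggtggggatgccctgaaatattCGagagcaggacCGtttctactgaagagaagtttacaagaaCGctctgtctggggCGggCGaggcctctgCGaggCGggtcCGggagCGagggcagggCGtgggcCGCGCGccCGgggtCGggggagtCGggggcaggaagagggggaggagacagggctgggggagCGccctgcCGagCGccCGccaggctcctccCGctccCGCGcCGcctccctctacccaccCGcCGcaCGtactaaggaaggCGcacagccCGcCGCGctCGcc
S100A11, minus strand, chr1:152036955-152037254: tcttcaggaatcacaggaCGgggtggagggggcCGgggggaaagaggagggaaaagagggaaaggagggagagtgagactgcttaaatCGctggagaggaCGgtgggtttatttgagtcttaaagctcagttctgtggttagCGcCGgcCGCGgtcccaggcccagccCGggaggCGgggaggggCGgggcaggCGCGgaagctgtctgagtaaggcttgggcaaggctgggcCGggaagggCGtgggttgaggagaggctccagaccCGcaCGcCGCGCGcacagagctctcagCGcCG
S100A4, minus strand, chr1:153545757-153546056: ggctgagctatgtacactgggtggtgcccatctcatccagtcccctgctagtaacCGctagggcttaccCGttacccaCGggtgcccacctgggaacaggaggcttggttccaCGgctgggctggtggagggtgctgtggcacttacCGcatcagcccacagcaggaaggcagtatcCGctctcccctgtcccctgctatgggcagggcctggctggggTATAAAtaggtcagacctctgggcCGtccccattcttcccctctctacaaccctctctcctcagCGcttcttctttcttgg
S100P, plus strand, chr4:6693628-6693927: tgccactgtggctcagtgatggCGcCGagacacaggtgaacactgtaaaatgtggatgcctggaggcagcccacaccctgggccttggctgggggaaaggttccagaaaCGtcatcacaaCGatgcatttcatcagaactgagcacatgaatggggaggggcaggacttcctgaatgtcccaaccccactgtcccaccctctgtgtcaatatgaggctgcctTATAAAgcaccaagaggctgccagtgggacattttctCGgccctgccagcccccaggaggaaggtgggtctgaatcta

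The window of S100A10 held 32 CG pairs, that of S100A6 held 31 and that of S100A11 held 22. By contrast, the window of S100A4 held 8 and that of S100P held 5. Over the 35116 windows of this length in the table the median was 14, with quartiles of 4 and 28. The remaining members held 19 or fewer in each window, and S100A2, S100A3 and S100A16, which also rose, held 8 or fewer, so the number of CG pairs did not separate the members that rose from those that fell. TATAAA stood in 3 of the 14 windows, those of S100A4 and S100P and 1 of 3 of S100A13, against 11.5% of all windows. Only the exact letters were counted. Variants such as tataag, in the windows of S100A6, which rose, and S100A14, which fell, were not. TGANTCA stood in 2 of the 14 windows, that of S100A3 and 1 of 2 of S100A2, against 7.71%. Both letter patterns can overlap no CG pair. A match is a run of letters and not a bound site, and methylation was not measured.

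S100A6, S100A11 and S100A10 were the S100 genes with the highest levels in HepG2/metR cells. S100A6, or calcyclin, is a partner of the ubiquitin ligase adaptor CACYBP and of several annexins. S100A6 was listed at 149 FPKM in HepG2/wild, 699 in HepG2/metR and 676 with oxamate. It rose by 2.22 on the log2 scale in HepG2/metR, a larger change than that of 94.3% of all genes kept, and differed by -0.05 with oxamate.

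S100A11 binds annexin A1 and is a frequent S100 protein of migrating and proliferating epithelial cells. S100A11 was listed at 83.8 FPKM in HepG2/wild, 546 in HepG2/metR and 471 with oxamate. Its log2 change of 2.69 in HepG2/metR was the largest rise among the 10 members and exceeded that of 95.9% of all genes kept. The difference with oxamate was -0.21. The genome holds several processed pseudogenes of S100A11, so part of its reads may be shared with copies.

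S100A10 differs from the rest of the family in that its calcium loops are locked and it does not need calcium. It forms a stable complex with annexin A2 beneath the plasma membrane, where the complex takes part in plasmin generation. S100A10 was listed at 65.1 FPKM in HepG2/wild, 215 in HepG2/metR and 225 with oxamate. The log2 change was 1.71 in HepG2/metR and 0.06 with oxamate. In each of the 3 genes both HepG2/metR libraries were at least 3-fold above the parental library in FPKM, and the libraries with and without oxamate were near each other.

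S100A16, S100A2 and S100A3 were also higher in HepG2/metR, by smaller amounts and at lower levels. S100A16, a widely expressed member, was listed at 45.7 FPKM in HepG2/wild, 97.7 in HepG2/metR and 69.3 with oxamate. S100A2, an epithelial member that binds p53, was listed at 4.80, 13.7 and 11.8 FPKM in the same order. S100A3, a cysteine-rich member known from the hair cuticle, was listed at 7.85, 16.8 and 15.0 FPKM. The log2 changes in HepG2/metR were 1.08 for S100A16, 1.34 for S100A2 and 1.01 for S100A3. The threshold of 2-fold is 1 on this scale, so S100A3 and S100A16 lay just inside it. S100A3 left the count, at 0.99, when the libraries were scaled by median-of-ratios size factors. S100A16 had the most negative difference with oxamate among the members, at -0.49, lower than all but 6.08% of the genes kept but short of the 1.5-fold threshold, which is 0.58.

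S100P went in the opposite direction. It was first described in placenta, is often abundant in carcinomas of the digestive tract, and binds ezrin and the receptor AGER, which is also called RAGE. S100P was listed at 533 FPKM in parental cells, above 98.8% of all genes kept, and at 0 in HepG2/metR cells with and without oxamate. No fold is given against a value of 0. Of 844 genes at or above 100 FPKM in HepG2/wild, 76 stayed below 1 FPKM in both HepG2/metR libraries, 16 of them at 0. Its neighbours on chromosome 4 were present in all libraries: MRFAP1 was listed at 204 FPKM in HepG2/wild, 133 in HepG2/metR and 115 with oxamate, and MRFAP1L1 at 63.7, 34.5 and 36.6 FPKM.

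S100A4, also known as metastasin, binds the heavy chain of non-muscle myosin IIA and is the member most often tied to invasion and to mesenchymal cells. S100A4 was listed at 38.9 FPKM in HepG2/wild, 1.29 in HepG2/metR and 3.41 with oxamate. It was thus 30.1-fold lower in FPKM in HepG2/metR than in HepG2/wild, a log2 change of -4.12. In the same library the mesenchymal marker VIM was listed at 1576 FPKM against 1.23 in parental cells. The mesenchymal marker FN1 went the other way, from 1503 FPKM in HepG2/wild to 45.7 in HepG2/metR, and CDH2 was at 35.2 and 33.4 FPKM. With oxamate S100A4 was 2.63-fold higher in FPKM than without, a log2 change of 0.94 that exceeded those of 99.3% of the genes kept. It remained 11.4-fold below the parental level. Of the 8 mesenchymal markers kept, 5 rose by 2-fold or more in HepG2/metR and 1, FN1, fell by as much. Among all genes kept, 16.6% were higher and 17.6% lower. ZEB2, TWIST1 and SNAI2 passed the filter on low values only through the HepG2/metR libraries, where they are high. All 10 mesenchymal markers summed to 1573 FPKM in HepG2/wild, 2232 in HepG2/metR and 1681 with oxamate. The part of these markers in the level of S100A4 was not tested. The changes of S100A4 rest on levels of a few FPKM in the HepG2/metR libraries, and the number of fragments behind them is unknown.

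S100A14, an epithelial member that lacks part of the residues that hold calcium, was low throughout. It was listed at 4.19 FPKM in HepG2/wild, 0.121 in HepG2/metR and 0.0397 with oxamate. The log2 change in HepG2/metR was -2.21, and the ratio of the FPKM values was 34.6. Of the epithelial markers kept, 4 of 6 also fell by 2-fold or more, against 17.6% of all genes kept. Among them were EPCAM, at 102 FPKM in HepG2/wild and 0.0900 in HepG2/metR, and CDH1, at 5.92 and 0.0365 FPKM. EPCAM and CDH1 passed the filter on low values only through HepG2/wild, where they are high. KRT8 and KRT18 were at 897 and 787 FPKM in HepG2/metR. The epithelial markers summed to 2069 FPKM in HepG2/wild, 1715 in HepG2/metR and 1298 with oxamate. The part of these markers in the level of S100A14 was not tested.

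S100A13 serves the release of FGF1 and IL1A from cells, a route that does not pass through the endoplasmic reticulum. S100A13 was listed at 129 FPKM in HepG2/wild, 67.4 in HepG2/metR and 64.5 with oxamate. Its log2 change of -0.92 in HepG2/metR lay just outside the 2-fold threshold. The gene overlaps S100A1 on the opposite strand, and the sources used here do not say whether strand was kept in counting. S100A1, a member best known from heart muscle, was listed at 285 FPKM in HepG2/wild, 0.366 in HepG2/metR and 0.274 with oxamate. Reads of the overlap cannot be told apart without strand, so the value of S100A13 in parental cells is uncertain. S100A3 and S100A4 overlap in the annotation on the same strand, and S100A6 and S100A11 each overlap an antisense RNA gene. Strand cannot separate S100A3 from S100A4, so their values may be uncertain too, among them the log2 change of 1.01 of S100A3.

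**Figure D2:**
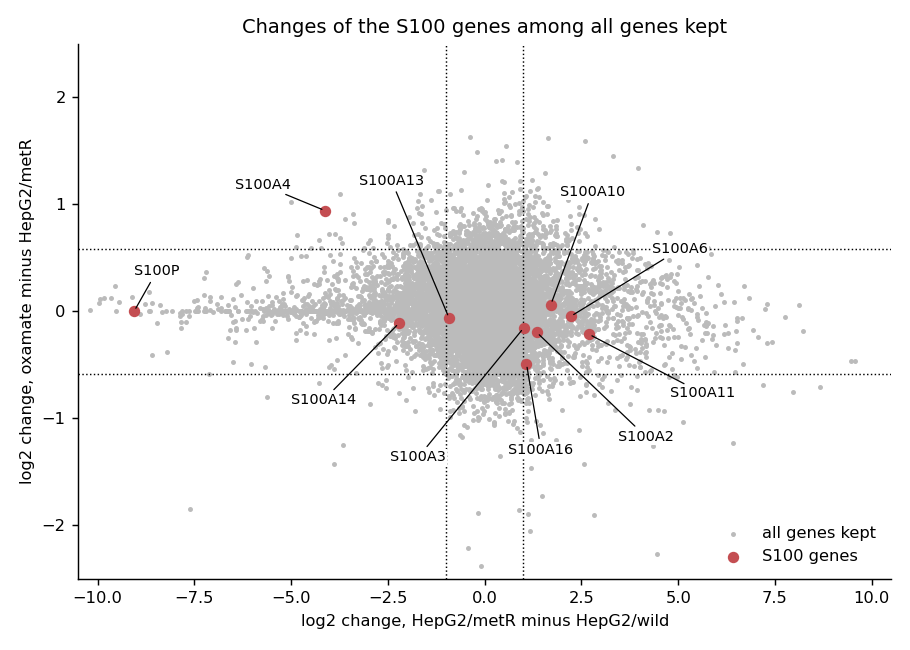
Log2 change between HepG2/metR and HepG2/wild on the horizontal axis and between oxamate-treated and untreated HepG2/metR on the vertical axis, for the S100 genes in red and all 12210 genes kept in grey; dotted lines mark 2-fold and 1.5-fold, and 45 genes lie outside the axes. The HepG2/metR library enters both axes; S100A4 is the only S100 gene beyond a horizontal dotted line, and S100P at the left stands for a value of 0 in both HepG2/metR libraries.

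The order of the members by level changed with the cell line and stayed as it was with oxamate. In parental cells S100P was followed by S100A6, S100A13, S100A11, S100A10, S100A16, S100A4, S100A3, S100A2 and S100A14. In HepG2/metR cells the order was S100A6, S100A11, S100A10, S100A16, S100A13, S100A3, S100A2, S100A4, S100A14 and S100P, and the oxamate-treated cells gave the same order. Without replicates it cannot be said which neighbours in these orders differ beyond their error. The closest in ratio were S100A16 and S100A13 in oxamate-treated cells, at 69.3 and 64.5 FPKM.

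The summed FPKM of the 10 members was 1061 in HepG2/wild, 1657 in HepG2/metR and 1536 with oxamate, which is 0.189%, 0.310% and 0.324% of the sum over all genes of each library. Over all 21 S100 genes the sums were 1349, 1658 and 1537 FPKM, so the libraries lay closer together when S100A1 and the other S100 genes were included. S100P made up 50.2% of the members' sum in parental cells, S100A6 14.1%, S100A13 12.1% and S100A11 7.90%. In HepG2/metR cells S100A6 made up 42.2% and S100A11 33.0%, and together with S100A10 they came to 88.1%. In oxamate-treated cells S100A6 made up 44.0% and S100A11 30.7%, and the same 3 genes came to 89.3%. S100A4 made up 3.67% of the sum in parental cells, 0.0781% in HepG2/metR cells and 0.222% with oxamate.

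**Figure D3:**
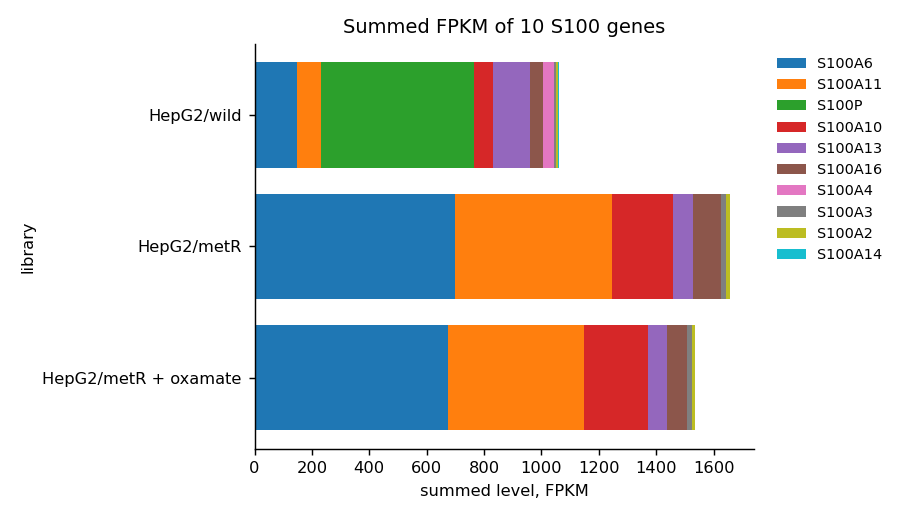
Summed FPKM of the 10 S100 genes on the horizontal axis, 1 bar per library, with each gene's part in its own colour. S100P fills 50.2% of the HepG2/wild bar and has no part in the HepG2/metR bars, where S100A6 and S100A11 together fill 75.1% without and 74.7% with oxamate.

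Of the 11 S100 genes outside the members, 6 were listed at 0 in all libraries, including S100A7, S100A8 and S100A12. S100A1 and S100A9 were the ones listed at 1 FPKM or more in any library. S100A9, a subunit of the myeloid protein calprotectin, was listed at 2.54 FPKM in parental cells and at 0 in both HepG2/metR libraries. Of the 8 leukocyte markers LYZ, CD14 and CD68 were kept, and their part in the level of S100A9 was not tested. LYZ and CD14 passed the filter on low values only through HepG2/wild, where they are highest. LYZ was listed at 3415 FPKM in HepG2/wild and at 0 in HepG2/metR, whereas CD68 was at 35.7 and 43.0 FPKM. All 8 summed to 3453 FPKM in HepG2/wild, nearly all of it LYZ, 43.9 in HepG2/metR and 32.1 with oxamate. PTPRC, the marker of all leukocytes, was at 0.0430 FPKM or less in every library and FCGR3A was at 0. The endothelial markers summed to 0.328 FPKM or less in every library.

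On chromosome 1, 9 of the members lie between S100A10 and S100A1 in the epidermal differentiation complex, where the S100 genes flank the genes of the outer skin layer. Among the 63 listed symbols from S100A10 to S100A1 in RefSeq order, 17 were S100 genes and 46 were others. Of the 46 others, 40 were listed at 0 in all libraries and 1 reached 1 FPKM. That gene was FLG, which encodes filaggrin, an S100 protein of the fused type, and it was listed at 0.00324 FPKM in HepG2/wild, 3.45 in HepG2/metR and 8.17 with oxamate. Of the 7 fused-type genes, 5 were at 0 in all libraries, and TCHH was at 0, 0.604 and 0.285 FPKM.

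Members that rose and fell stood side by side in this order. S100A4, at 1.29 FPKM in HepG2/metR, lies next to S100A3, at 16.8 FPKM, and S100A5, at 0.348 FPKM, separates it from S100A6, at 699 FPKM. S100A14, at 0.121 FPKM, lies between S100A16, at 97.7 FPKM, and S100A13, at 67.4 FPKM. S100A13 was itself lower than in HepG2/wild, where it was listed at 129 FPKM. S100A1, next to S100A13, went from 285 to 0.366 FPKM. S100A14, S100A13 and S100A1 are thus adjacent and were all lower in HepG2/metR. Beyond S100A1, CHTOP was listed at 34.1 FPKM in HepG2/wild, 58.7 in HepG2/metR and 55.4 with oxamate, and before S100A10, THEM4 was listed at 3.26, 6.02 and 4.02 FPKM. NBPF18P and TCHHL1, the other neighbours of S100A10 and S100A11, and S100A7 beside S100A6 were at 0 in all libraries. The low genes of HepG2/metR did not form 1 run of neighbours, because S100A3, S100A2 and S100A16, which rose, lie between S100A4 and S100A14.

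**Figure D4:**
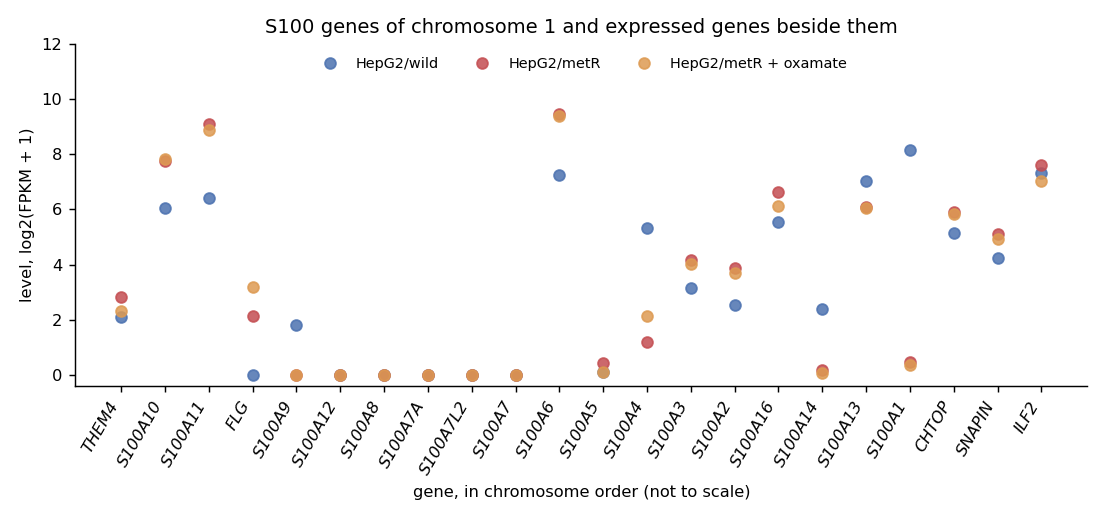
Level as log2(FPKM + 1) on the vertical axis for the S100 genes of chromosome 1 and the genes beside them listed at 1 FPKM or more in any library, in chromosome order and not to scale, with 1 point per library. S100A4, S100A14 and S100A1 drop from 38.9, 4.19 and 285 FPKM in HepG2/wild to 1.29, 0.121 and 0.366 in HepG2/metR. S100A3, S100A16 and CHTOP beside them are higher in HepG2/metR. S100A13, between S100A14 and S100A1, is lower, at 67.4 FPKM against 129 in HepG2/wild.

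Genes of the proteins that S100 members bind were followed next. All 20 partner genes were found and 19 were kept. Of these, 9 rose by 2-fold or more in HepG2/metR, 1 fell by as much and 9 did neither, against 16.6% higher and 17.6% lower among all genes kept. The median log2 change was 0.93, against 0.02 over all genes kept. IL1A, FGF1 and PLAT passed the filter on low values only through the HepG2/metR libraries, where they are high. ANXA2, ANXA1 and AHNAK were among the higher genes. ANXA2, which joins S100A10, was listed at 66.1 FPKM in HepG2/wild, 2268 in HepG2/metR and 1806 with oxamate. ANXA1, which joins S100A11, was listed at 2.01, 754 and 448 FPKM. AHNAK, a giant scaffold protein that docks to the complex of S100A10 and annexin A2, was listed at 10.9, 102 and 146 FPKM.

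These are larger changes than those of the S100 genes they pair with: the log2 change in HepG2/metR was 5.08 for ANXA2 against 1.71 for S100A10, and 7.97 for ANXA1 against 2.69 for S100A11. PLAT, the tissue plasminogen activator, was listed at 0.413 FPKM in HepG2/wild, 34.1 in HepG2/metR and 23.8 with oxamate. The cargoes of S100A13 were listed at 0 in parental cells, and at 12.3 FPKM for IL1A and 6.13 FPKM for FGF1 in HepG2/metR. With oxamate they were at 9.65 and 9.24 FPKM. IL1A and FGF1 were thus present in the libraries in which S100A13 was at the lower of its levels.

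The partners named here for S100A4 and S100P were higher in HepG2/metR than in HepG2/wild. MYH9, the myosin bound by S100A4, was listed at 75.0 FPKM in HepG2/wild, 144 in HepG2/metR and 133 with oxamate. EZR, the ezrin gene, a partner of S100P, was listed at 53.1, 124 and 119 FPKM. MYH10, the heavy chain of non-muscle myosin IIB, was the partner gene that was at least 2-fold lower, at 33.5 FPKM in HepG2/wild and 10.5 in HepG2/metR, with a log2 difference of 0.05 under oxamate. With oxamate 1 of 19 partner genes was at least 1.5-fold lower, ANXA1 with a log2 change of -0.75, and 0 were at least 1.5-fold higher, against 3.82% and 4.3% of all genes kept.

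Receptors that bind released S100 proteins were present at mixed levels. Of 9 receptor genes 7 were kept, of which 3 rose by 2-fold or more in HepG2/metR, 1 fell and 3 did neither, against 16.6% and 17.6% of all genes kept. The median log2 change was -0.41, against 0.02 over all genes kept, and CD36, the gene that fell, passed the filter only through HepG2/wild. AGER was listed at 2.53 FPKM in HepG2/wild, 1.57 in HepG2/metR and 1.24 with oxamate, and TLR4 at 0.343, 0.127 and 0.384 FPKM. The higher genes were the adhesion molecules ALCAM, at 17.5, 159 and 183 FPKM, and MCAM, at 15.4, 57.9 and 62.7 FPKM, and the growth factor receptor EGFR, at 2.66, 29.1 and 42.5 FPKM. CD36, a scavenger receptor, was listed at 4.61 FPKM in HepG2/wild and at 0.0434 and 0.0453 FPKM in the HepG2/metR libraries. None of the 7 receptor genes passed 1.5-fold with oxamate, against 3.82% lower and 4.3% higher among all genes kept.

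**Figure D5:**
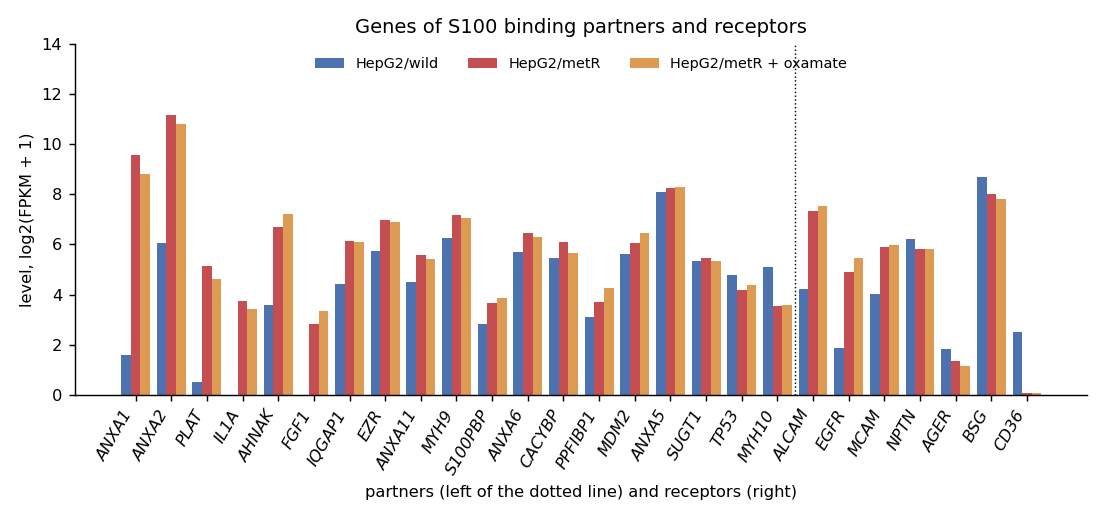
Level as log2(FPKM + 1) on the vertical axis for the 19 partner and 7 receptor genes kept, ordered within each list by the change between HepG2/metR and HepG2/wild, with 1 bar per library and no error bars. ANXA1 and ANXA2 reach 754 and 2268 FPKM in HepG2/metR, from 2.01 and 66.1 in HepG2/wild.

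The median log2 change with oxamate was -0.09 over the 10 members and 0.02 over all genes kept. Differences between 0.05 and 0.21 in size were recorded for 7 of the members, S100P was at 0 in both libraries, and S100A4 and S100A16 stood outside this range. S100A14 is among the 7, although its FPKM was 3.05-fold lower with oxamate than without, because its values of 0.121 and 0.0397 FPKM are small beside the pseudocount of 1. It passed 1.5-fold with smaller pseudocounts, at log2 changes of -0.66 with 0.1 and -1.40 with 0.01. Among all genes kept, 466 were at least 1.5-fold lower and 525 at least 1.5-fold higher with oxamate. That split depended on scaling, with 374 lower and 661 higher under upper-quartile scaling and 192 and 1184 when each library was scaled to the same total. Scaling to the same total moved the median of all genes kept to 0.17 and turned the small differences of S100A3, S100A6 and S100A13 to positive values, so no direction is drawn from them. S100A4 passed 1.5-fold under every scaling, with log2 changes from 0.92 to 1.07, and S100A16 did not, with changes from -0.51 to -0.32.

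Across the 6552 genes with a mean of at least 10 FPKM, the genes nearest to a member over the values of the 3 libraries were read off by Euclidean distance on the log2(FPKM + 1) scale. For S100P, the member with the largest change in HepG2/metR, they were FGA at a distance of 0.02, AGT at 0.14 and RBP4 at 0.14. FGA was listed at 533 FPKM in parental cells and 0 in HepG2/metR cells, AGT at 485 and 0.0142, and RBP4 at 551 and 0. For S100A4, the member with the largest change with oxamate, they were TGFBR3 at 0.41, SNTB1 at 0.57 and ABLIM1 at 0.57. TGFBR3 was listed at 33.9 FPKM in HepG2/wild, 1.62 in HepG2/metR and 2.55 with oxamate. Likeness over 3 libraries is a description of these libraries.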

How the data were processed

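RNA-seq values of 3 HepG2 libraries, 1 per condition, were analysed. The authors deposited log2 values per gene symbol, which have the form log2(FPKM + 1): back-transformed, 100% of those above 1 held at most 6 significant digits. This unit was read from the values. The submitters' processing notes name STAR 2.5.1b, FastQC 0.11.5, Cufflinks 2.2.1 and the build hg19; the annotation, the filters and any use of strand are not given in the sources used here. Of the symbols, 28 had become dates and were not used by name. No coordinates are given from hg19. Gene order and promoter windows came from RefSeq (GRCh38.p14), with 22374 symbols matched, and overlaps from GENCODE.

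The deposited values were used without scaling. Genes with a mean of at least 1 FPKM were kept. With 1 library per group no test was run, and a gene was called past 2-fold (HepG2/metR against HepG2/wild) or 1.5-fold (oxamate against HepG2/metR), the folds of the study's methods. The members and lists were chosen with earlier results of these data known. Named were all members, other S100 genes at 1 FPKM or more, the 4 largest changes in HepG2/metR per list with ANXA2, ANXA1 and AHNAK, adjacent genes and the 3 nearest genes by pattern. MYH9, EZR, MYH10, FGF1, AGER, TLR4, TCHH, S100A8, S100A12, CHTOP and the cell type markers were named outside that rule, after their values were seen. The calculation was tested on simulated data with no low values, little noise and changes well past the fold. A pass was therefore nearly certain, and the calls at low levels were not tested by it. The files give no read depth, and intervals for counting error were therefore not computed. Python 3.11, numpy 2.4.6, pandas 2.3.3 and matplotlib 3.10.9 were used.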

Additional observations from a re-analysis of the deposited data

How the results depend on the processing

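No paired analysis was possible because each condition has 1 library, and no replicate could be left out for the same reason. The alternatives were pseudocounts of 0.1 and 0.01, no filter or a mean of at least 5 FPKM, median-of-ratios, upper-quartile or same-total scaling, and 2-fold or 1.5-fold in both comparisons. Of 178 recomputed changes of single members, 173 kept their side of the threshold, 2 lost it and 3 gained it. Part of the 173 was fixed in advance. The filter settings do not alter the change of a single member. The 2-fold setting is the reported one for HepG2/metR, and the 1.5-fold setting is the reported one for oxamate. S100P was at 0 in both HepG2/metR libraries, so its oxamate change could not move. The 173 is therefore no measure of stability. Of the S100 members, 1 was at least 1.5-fold lower with oxamate at a pseudocount of 0.1 and 1 at 0.01, against 0 as reported; it was S100A14, with log2 changes of -0.66 and -1.40, at levels under 1 FPKM. The count of members higher with oxamate went from 1 to 0 when 2-fold was asked. That member was S100A4, at levels of a few FPKM. Its log2 change was 0.94 with the pseudocount of 1 and 1.33 with 0.1. S100A13 passed at 1.5-fold in HepG2/metR. The counts of 6 higher and 3 lower members in HepG2/metR stayed within 1.5 times under every alternative, though no filter and the 2-fold setting could not change them. An alternative chosen after seeing the data left out S100A11 and S100A13 and gave 5 and 3. That outcome was fixed in advance, because S100A11 was among the 6 and S100A13 was in neither count.

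For all genes kept, a mean of at least 5 FPKM gave 1249 higher and 1428 lower in HepG2/metR, against 2021 and 2147, and 271 higher with oxamate, against 525. Asking 1.5-fold gave 3262 and 3301 in HepG2/metR, and 2-fold gave 66 higher and 64 lower with oxamate. The pseudocounts gave 1018 and 1164 higher with oxamate, and same-total scaling 1184 higher and 192 lower. Upper-quartile scaling moved the median change in HepG2/metR to 0.15 over all genes kept and to 1.19 over the members.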

Other observations

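Calcium-binding EF-hand proteins outside the S100 family were listed for 34 genes, of which 29 were kept. In HepG2/metR against parental cells 6 of these were at least 2-fold higher, 2 at least 2-fold lower and 21 neither, where 16.6% of all genes kept were higher and 17.6% lower. The median log2 change was 0.24, against 0.02 over all genes kept. SRI, the gene of sorcin, was listed at 0.135 FPKM in HepG2/wild, 66.3 in HepG2/metR and 56.9 with oxamate. TESC, which encodes tescalcin, went the other way, from 44.2 FPKM to 0.127 and 0.209. SRI passed the filter on low values only through the HepG2/metR libraries, and TESC only through HepG2/wild. SPARC, a secreted calcium-binding glycoprotein of the matrix, was listed at 27.4, 552 and 376 FPKM, and CAPN2, a calpain subunit, at 14.1, 110 and 108 FPKM.

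With oxamate 3 of the 29 genes were at least 1.5-fold lower and 1 at least 1.5-fold higher, against 3.82% and 4.3% of all genes kept. The lower genes were CALM3, PDCD6 and EFHD2, with log2 changes of -0.65, -0.67 and -0.67. The higher gene was CALB2, listed at 0.756 FPKM without and 1.83 with oxamate. Its mean of 1.005 FPKM passed the filter on low values only through the oxamate library, in which it is called higher. These 4 genes were named after their values were seen.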
